A study of Mus musculus with 12 samples.

Results

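Interscapular brown fat (BAT) was compared with white fat, taken as the mean of 3 white depots of equal weight: epididymal (EWAT), inguinal (IWAT) and retroperitoneal (RWAT). All 12 libraries of the series entered, 3 of them from BAT and 9 from white fat, with 3 libraries in each depot. Every library came from male wild type C57BL/6J mice, 6 to 10 weeks old and obese on a high-fat rodent diet, and was labelled as denervated by surgery. The controls that would show the effect of denervation are not among these groups, so each difference is one between depots of denervated fat. The labels did not say whether the 3 libraries of a depot came from separate animals, and p-values therefore measure the spread between these libraries, part of which may be technical.

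Brown adipocytes burn fatty acids and release the energy as heat through the uncoupling protein UCP1 when sympathetic nerves release noradrenaline, whereas white adipocytes store lipid and secrete hormones such as leptin. Interscapular brown fat arises from dorsal mesoderm of the trunk, and fat depots keep the homeobox and T-box factors of the body region they come from. Brown fat that loses its nerves is known to lose UCP1 and to take on a white appearance.

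The 3 BAT libraries did not match in the marker that defines the tissue. Ucp1 stood at 1489, 0.253 and 1.70 CPM (counts scaled to the TMM-adjusted size of each library) in BAT 1, BAT 2 and BAT 3, against 0.0571 to 2.20 CPM in EWAT, 1.53 to 8.66 CPM in IWAT and 0.338 to 1.5 CPM in RWAT. Only BAT 1 of the 3 stood above the white libraries, and BAT 2 and BAT 3 lay within their range. The dorsal lineage factors Zic1 and Lhx8 were present in all 3 BAT libraries. Results that rest on BAT 1 are therefore given below also without it. The libraries held 12933516 to 21106554 expected counts, and a floor of 3 counts equals 0.134 to 0.227 CPM. Pan-adipocyte genes had a mean log2 CPM of 8.55, 6.80 and 9.40 in BAT 1, BAT 2 and BAT 3, and 5.20 to 9.91 in white fat. Skeletal muscle transcripts had a mean log2 CPM of 3.51, 0.186 and -0.242 in BAT 1, BAT 2 and BAT 3, a median of -0.493 in the white libraries and a highest value of 7.56 in RWAT 3. In bulk tissue, fewer cells of a type and less RNA per cell cannot be told apart.

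Between BAT and white fat, 10 of 18942 tested genes (0.0528%) passed a Benjamini-Hochberg (BH) adjusted p of 0.05 in the edgeR quasi-likelihood test, 7 higher (0.037%) and 3 lower (0.0158%) in BAT. The 7 were the dorsal transcription factors Zic1 and Zic4, the T-box factor Tbx15, the synapse protein gene Syndig1, the secreted signal Wnt16, and the interferon-induced genes Ifi44 and Apol9a. The 3 lower genes were the posterior homeobox factors Hoxa9, Hoxa10 and Hoxc10. At an unadjusted p below 0.05, 733 genes (3.87%) were higher and 199 (1.05%) lower in BAT. Separation of the libraries was counted apart from the test: all 3 BAT libraries lay above all 9 white libraries for 47 genes (0.248%) and below all of them for 37 (0.195%). The median log2 fold change of all tested genes was 0.0079.

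**Figure D1:**
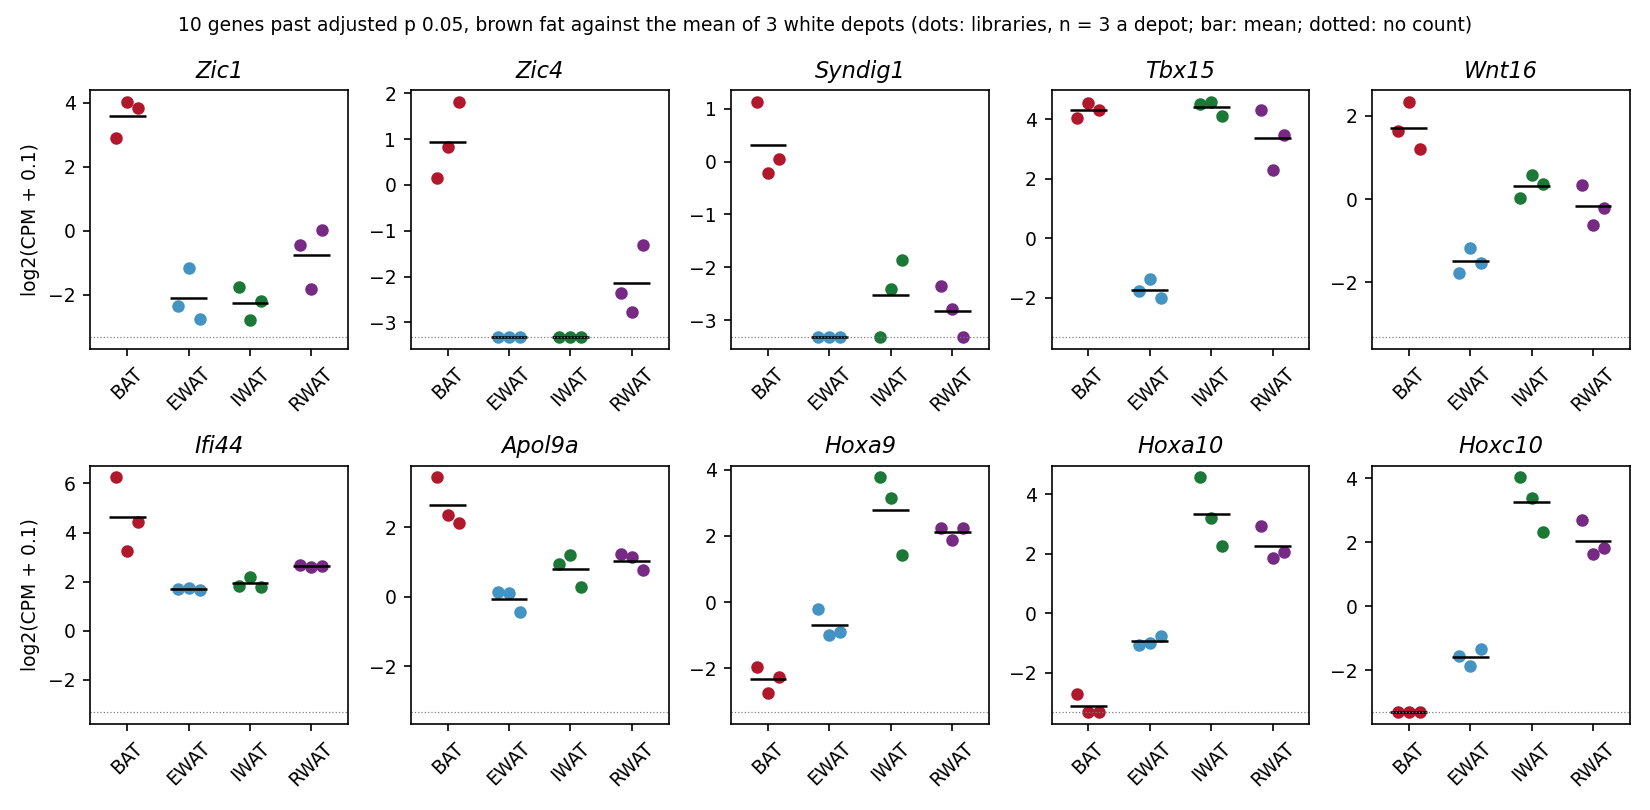
Level of the 10 genes past the threshold on the log2(CPM + 0.1) scale, with BAT left of EWAT, IWAT and RWAT; dots are libraries (n = 3 a depot), bars are depot means and the dotted line marks no count. The 3 BAT libraries of Zic1 sit between 7.35 and 16 CPM, above all white libraries, while Tbx15 in BAT overlaps IWAT and Hoxc10 has no count in BAT.

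Zic1 had the smallest p of the comparison. It stood at 7.35, 16 and 14.2 CPM in BAT 1, BAT 2 and BAT 3, against 0.0488 to 0.343 CPM in EWAT, 0.0446 to 0.196 CPM in IWAT and 0.182 to 0.910 CPM in RWAT. All 3 BAT libraries were above every white library, BAT 2 and BAT 3 included, which had little Ucp1. Zic1 rose by a log2 fold change of 5.84 ± 0.41 (SE, edgeR BH-adjusted p = 6.13e-05), and it was past the threshold in all 22 alternatives, at 5.5 to 6.19. The gene lies on chromosome 9 at 91358058 to 91365810 (GRCm38, minus strand). Zic4, on the plus strand at 91362413 to 91389348, overlaps it where both begin, with start sites 3397 bases apart. Whether counting used strand is not given in the sources used here, and without it reads in the overlap cannot be assigned to one of the pair.

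Zic4 stood at 1.01, 1.67 and 3.40 CPM in BAT 1, BAT 2 and BAT 3, had 0 counts in every EWAT and IWAT library, and stood at 0.0967, 0.0455 and 0.303 CPM in RWAT 1, RWAT 2 and RWAT 3. The groups did not overlap. The fit gave a log2 value of 6.80 ± 0.73 (edgeR BH-adjusted p = 0.0231), which depends on the treatment of zeros in EWAT and IWAT and is no bound. On the deposited scale per transcript length, the level of Zic1 in BAT 1, BAT 2 and BAT 3 was 2.54, 8.97 and 6.88 TPM, and that of Zic4 was 0.54, 2.12 and 3.12 TPM. Both were lowest in BAT 1, the library with Ucp1. Of the other Zic genes, Zic2 reached 0.304 CPM and Zic5 1.32 CPM, each in BAT 2, and neither passed the filter on low counts.

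Lhx8, a LIM homeobox factor used as a marker of brown fat, had a higher TPM than Zic1 and Zic4 in BAT 1, at 6.14 TPM. It had 7.47 and 7.88 TPM in BAT 2 and BAT 3. In CPM it stood at 9.06, 7.96 and 10.6 in BAT 1, BAT 2 and BAT 3, had 0 counts in EWAT, and stood at 3.92, 2.14 and 2.06 CPM in IWAT and 2.46, 0.227 and 0 CPM in RWAT. No white library reached the BAT range. It did not pass the threshold (fitted log2 fold change 5.16 ± 0.81, edgeR BH-adjusted p = 0.0991).

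Tbx15, a T-box factor of skeletal and adipose development, rose against the white mean but overlapped the white libraries. It stood at 16.4, 23.1 and 19.7 CPM in BAT 1, BAT 2 and BAT 3, against 0.147 to 0.285 CPM in EWAT, 17.2 to 23.6 CPM in IWAT and 4.82 to 19.7 CPM in RWAT. BAT 2 and BAT 3 lay within the IWAT range and BAT 1 just below it, while EWAT lay far below both depots. Its difference on the log2 scale was 2.40 ± 0.31 against the white mean (edgeR BH-adjusted p = 0.0231), 6.55 ± 0.55 against EWAT (adjusted p = 0.00139), -0.10 ± 0.39 against IWAT (adjusted p = 0.934) and 0.74 ± 0.39 against RWAT (adjusted p = 0.999). With the 9 white libraries taken as 1 group it was 0.84 and did not pass.

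Of the 14 tested dorsal and brown lineage factors, 3 rose (Zic1, Zic4 and Tbx15, against 0.037% over all genes) and 0 fell, and 8 were higher at an unadjusted p below 0.05 (3.87%). Their median log2 fold change was 0.80, against 0.0079 over all genes. Meox2, a homeobox factor of the somites, stood at 20.6, 23.3 and 20.8 CPM in BAT and 5.57 to 23.3 CPM in white fat (0.76 ± 0.19, edgeR BH-adjusted p = 0.221). En1, an engrailed factor of the dermomyotome, stood at 3.30, 11.6 and 2.85 CPM in BAT and 0.685 to 4.68 CPM in white fat, high in BAT 2 alone. Prdm16 and Ebf2, regulators of brown fat fate, overlapped the white libraries. Prdm16 had 3.85 to 13.8 CPM in BAT and up to 21.6 CPM in IWAT, and Ebf2 had 26.8 to 50.4 CPM in BAT and up to 71.4 CPM in IWAT. The muscle lineage factors Pax3, Pax7 and Myf5 reached at most 0.0533 CPM in BAT, under the floor of 3 counts, and Pax3 reached 3.11 CPM in RWAT 3. Tbx1, a T-box factor, did not pass the filter on low counts and reached 3.53 CPM, in IWAT 1.

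Posterior homeobox genes specify the trunk towards the tail, and 3 of 6 tested members fell in BAT (0.0158% over all genes). Hoxa10 stood at 0.0533, 0 and 0 CPM in BAT 1, BAT 2 and BAT 3, against 0.381 to 0.488 CPM in EWAT, 4.71 to 23.6 CPM in IWAT and 3.55 to 7.44 CPM in RWAT. Pooled counts summed to 1 in BAT and 954 in white fat. Their ratio was 319, with a 95% exact counting interval of 57.2 to 12625. EWAT 1, EWAT 2 and EWAT 3 held 8, 7 and 10 of the 954. The ratio thus describes mainly IWAT and RWAT. In the edgeR test against the equally weighted depots, Hoxa10 had a BH-adjusted p of 0.0231. Hoxa9, its neighbour on chromosome 6 with a start site 9765 bases away, stood at 0.160, 0.0507 and 0.110 CPM in BAT, 0.400 to 0.762 CPM in EWAT, 2.59 to 13.5 CPM in IWAT and 3.55 to 4.64 CPM in RWAT. It fell by 4.57 ± 0.64 on the log2 scale (edgeR BH-adjusted p = 0.0231). Hoxc10 on chromosome 15 summed to 0 counts in BAT and 819 in white fat. EWAT 1, EWAT 2 and EWAT 3 held 5, 3 and 6 of the 819. With 3 counts set for the BAT group in place of 0, the pooled level was at least 91.4-fold lower there. This bound describes mainly IWAT and RWAT. In the edgeR test against the equally weighted depots, Hoxc10 had a BH-adjusted p of 0.0231. For all 3 genes the BAT libraries were below every white library, with EWAT closest to BAT. Of the 6 tested members, 5 were below all white libraries in BAT 1 (6.42% over all genes), 3 in BAT 2 (6.79%) and 5 in BAT 3 (3.83%).

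Hoxc9 and Hoxd9 did not pass the threshold. Hoxc9 stood at 0.213, 2.38 and 1.04 CPM in BAT 1, BAT 2 and BAT 3 and 1.76 to 12.7 CPM in white fat (log2 fold change -1.82 ± 0.54, edgeR BH-adjusted p = 0.404). Hoxd9 stood at 0.426 to 0.710 CPM in BAT and 0.682 to 2.71 CPM in white fat. Hoxb9 alone of the 6 had a positive value, 0.37 ± 0.51. The other 10 listed posterior genes did not pass the filter on low counts and reached at most 0.625 CPM in any library. The median of the 6 was -3.19, and it lay between -3.51 and -3.14 without each BAT library in turn. Of the same 6 posterior genes, edgeR called 3 lower, DESeq2 4 (0.95% over all genes in either direction) and limma-voom 0 (0.0211%). Of 20 tested anterior and central homeobox genes, edgeR, DESeq2 and limma-voom each called 0, 0 had an unadjusted p below 0.05, and the median was -0.057. Their mean log2 CPM was 1.40, 1.53 and 1.51 in BAT 1, BAT 2 and BAT 3 and 0.82 to 2.05 in white fat. Meis1, a homeobox cofactor of Hox proteins, stood at 7.56, 6.18 and 7.28 CPM in BAT and 8.36 to 26.1 CPM in white fat, with no overlap (log2 fold change -1.03 ± 0.25, edgeR BH-adjusted p = 0.208). It was named after its values were seen.

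The pairs with single white depots, which share the BAT libraries, placed 8 of the 10 calls. Zic4 and Ifi44 passed in no pair. Against EWAT, 27 genes passed (0.143%), among them 5 of the 10 (Apol9a, Syndig1, Tbx15, Wnt16 and Zic1). Against IWAT 5 passed (0.0264%), and against RWAT 4 passed (0.0211%). At an unadjusted p below 0.05 the counts were 1884 (9.95%) against EWAT, 2501 (13.2%) against IWAT and 894 (4.72%) against RWAT. In the pairs with IWAT and RWAT the adjusted calls held the same 4 of the 10, which were Hoxa9, Hoxa10, Hoxc10 and Zic1. Zic1 had a log2 fold change of 6.28 ± 0.66 against EWAT, 6.73 ± 0.69 against IWAT and 4.51 ± 0.57 against RWAT.

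**Figure D2:**
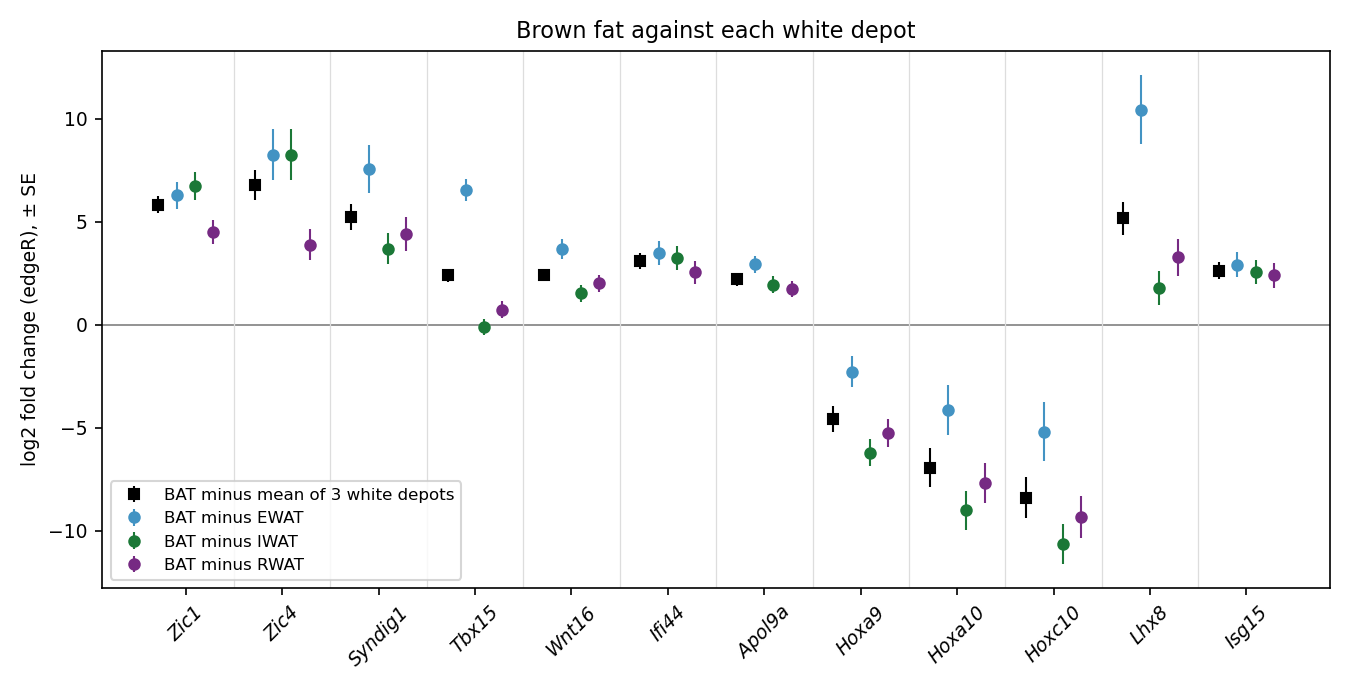
Log2 fold change ± SE (edgeR) of BAT minus the white mean (black squares) and minus EWAT, IWAT and RWAT (circles) for the 10 genes past the threshold, Lhx8 and Isg15. Zic1, Ifi44 and Apol9a lie above 0 against each depot, Tbx15 stands at -0.10 against IWAT and 6.55 against EWAT, and Hoxa9 lies below 0 against each depot. Values for Zic4, Syndig1, Lhx8 and Hoxc10 against depots with no count on 1 side are no bounds, and Hoxa10 rests on 1 count in BAT.

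Syndig1 and Wnt16 rose in BAT at low levels. Syndig1, which encodes a membrane protein of synapses, stood at 2.08, 0.760 and 0.931 CPM in BAT 1, BAT 2 and BAT 3, from 39, 15 and 17 counts. White libraries had at most 3 counts, and EWAT had 0. The fit gave a log2 value of 5.22 ± 0.64 (edgeR BH-adjusted p = 0.0101), which rests on these zeros. Wnt16 stood at 2.98, 4.92 and 2.19 CPM in BAT 1, BAT 2 and BAT 3, against 0.190 to 0.343 CPM in EWAT, 0.915 to 1.38 CPM in IWAT and 0.546 to 1.16 CPM in RWAT. It was above every white library in all 3 BAT libraries and rose by 2.41 ± 0.31 (edgeR BH-adjusted p = 0.0231). Of the 25 tested Wnt pathway genes, Wnt16 alone passed. At an unadjusted p below 0.05, 3 were higher (3.87% over all genes) and 2 lower (1.05%). The median was 0.13, or -0.11 without BAT 3. The secreted antagonist Sfrp2 stood at 101, 132 and 48.4 CPM in BAT and 31.5 to 83.7 CPM in white fat (0.98 ± 0.31, edgeR BH-adjusted p = 0.489). The receptor Fzd8 stood at 5.33 to 5.92 CPM in BAT and 2.08 to 6.60 CPM in white fat (0.62 ± 0.24, edgeR BH-adjusted p = 0.81).

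Interferons are antiviral cytokines, and their receptors signal to an element in the promoters of antiviral genes. All 25 tested genes of the interferon response list had positive log2 fold changes, with a median of 1.88. Of these, 2 rose (Ifi44 and Apol9a, against 0.037% over all genes). At an unadjusted p below 0.05, 24 of 25 were higher, against 3.87% of all genes. DESeq2 called 23 of 25, where it called 0.95% of all genes, and limma-voom called 0, where it called 0.0211% of all genes. The core of the element reads GAAA, any 2 bases, then GAAA. Windows around such matches within 250 bases before the start are shown for 5 members whose BAT libraries are described next, 5′ to 3′ on the gene's strand, from RefSeq promoters (GRCm38.p6), with the matches in capitals:
Isg15, chr4:156200855-156200916, minus strand: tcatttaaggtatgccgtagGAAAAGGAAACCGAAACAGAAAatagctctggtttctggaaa
Bst2, chr8:71537567-71537622, minus strand: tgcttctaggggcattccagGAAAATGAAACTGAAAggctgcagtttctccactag
Apol9a, chr15:77411104-77411159, minus strand: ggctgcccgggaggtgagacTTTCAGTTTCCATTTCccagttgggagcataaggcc
Apol9b, chr15:77729015-77729070, plus strand: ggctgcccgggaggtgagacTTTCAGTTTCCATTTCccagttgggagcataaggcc
Cxcl10, chr5:92349073-92349122, minus strand: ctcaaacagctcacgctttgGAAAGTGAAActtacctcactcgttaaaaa

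The core was searched on both strands, and on the other strand it reads TTTC, any 2 bases, then TTTC. Matches that overlap were merged, as in Isg15, where 3 matches run into each other. Of 27025 genes with a promoter in the table, 936 (3.46%) held a match, and of 11732 tested genes 387 (3.3%) did. Of the 25 tested interferon genes 18 had a promoter in the table, and 11 of these (61.1%) held a match. Of the genes with all BAT libraries above white fat, 6 of 34 (17.6%) held one, and of those with all BAT libraries below, 1 of 26 (3.85%). Both sets were chosen by their BAT values. The 6 include Isg15, Bst2, Apol9a and Apol9b, which are also among the 11, so the 17.6% is not a separate observation. Ifi44 had a promoter in the table and no match in it. A match describes the letters and is not evidence of binding.

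Ifi44, an interferon-induced protein gene, stood at 76.1, 9.43 and 21.2 CPM in BAT 1, BAT 2 and BAT 3, against 3.08 to 3.20 CPM in EWAT, 3.35 to 4.42 CPM in IWAT and 5.91 to 6.23 CPM in RWAT. Each BAT library was above every white library, BAT 1 most of all. It rose by 3.09 ± 0.40 (edgeR BH-adjusted p = 0.0231). Isg15, a ubiquitin-like modifier, stood at 94.1, 11.1 and 27.5 CPM in BAT 1, BAT 2 and BAT 3 and 4.97 to 10.5 CPM in white fat, again without overlap (2.63 ± 0.42, edgeR BH-adjusted p = 0.0773). Bst2, the membrane protein tetherin that holds back budding viruses, stood at 215, 61.4 and 90.0 CPM in BAT and 26.1 to 58.1 CPM in white fat (1.72 ± 0.31, edgeR BH-adjusted p = 0.0991).

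Apol9a and Apol9b, apolipoprotein L genes, lie on chromosome 15 with start sites 317904 bases apart, and the windows printed above are the same in both. They are closely related copies, between which reads may be split, and how the counting divided them was not tested. Apol9a stood at 10.7, 5.02 and 4.22 CPM in BAT 1, BAT 2 and BAT 3 and 0.635 to 2.22 CPM in white fat, and rose by 2.21 ± 0.30 (edgeR BH-adjusted p = 0.0231). Apol9b stood at 10.6, 3.45 and 3.89 CPM in BAT and 0.571 to 2.05 CPM in white fat (2.27 ± 0.37, edgeR BH-adjusted p = 0.0965). Both were above the white libraries in all 3 BAT libraries.

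The height of the interferon genes differed within BAT. BAT 1 was above all 9 white libraries for 24 of the 25 genes (8.04% over all genes), BAT 3 for 23 (5.51%) and BAT 2 for 5 (7.33%). The list's mean log2 CPM was 7.01, 4.66 and 6.01 in BAT 1, BAT 2 and BAT 3, and 3.55 to 5.14 in white fat, highest in RWAT 1. Its summed level was 5183, 992 and 3714 CPM in BAT 1, BAT 2 and BAT 3. White fat summed to 512 to 4241 CPM, highest in IWAT 1, so by sum BAT 2 and BAT 3 lay within white fat. The chemokine Cxcl10 stood at 79.7, 5.32 and 88.6 CPM in BAT 1, BAT 2 and BAT 3 and 1.90 to 15.6 CPM in white fat, high in BAT 1 and BAT 3. The transcription factor Irf7 stood at 519, 62.0 and 153 CPM in BAT and 18 to 99.0 CPM in white fat. Ifi27l2a did not separate, with 1302, 189 and 1607 CPM in BAT and 3541 CPM in IWAT 1. The list's median was 1.23 without BAT 1, 2.29 without BAT 2 and 2.13 without BAT 3. Outside the list, and named after their values were seen, Rnf213, Helz2, Pml, Adar and Mov10 were also above all white libraries in all BAT libraries. Rnf213, a large ubiquitin ligase, stood at 1526, 582 and 1093 CPM in BAT and 248 to 541 CPM in white fat (1.52 ± 0.28, edgeR BH-adjusted p = 0.101). Adar, an RNA editing enzyme, stood at 130, 66.6 and 90.9 CPM in BAT and 41.5 to 63.9 CPM in white fat (0.90 ± 0.20, edgeR BH-adjusted p = 0.143).

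**Figure D3:**
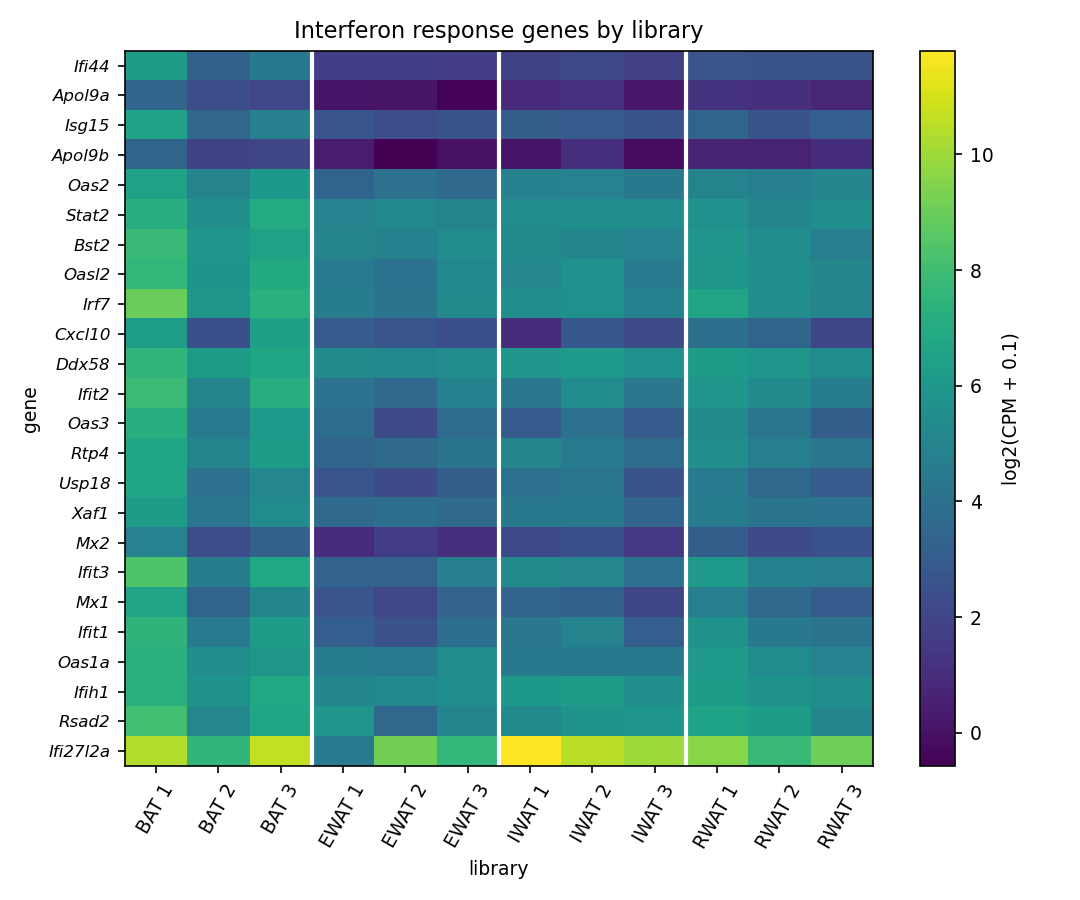
Level of 24 of the 25 tested interferon response genes on the log2(CPM + 0.1) scale (colour) in each library, BAT left of EWAT, IWAT and RWAT. BAT 1 and BAT 3 are brighter than white fat in most rows, with a list mean of 7.01 and 6.01 log2 CPM, and BAT 2 is nearer to white fat at 4.66.

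Transcripts of T cells and natural killer cells, which respond to and release interferons, were highest in BAT 1. The list's mean log2 CPM was 3.85, 0.522 and 2.15 in BAT 1, BAT 2 and BAT 3, and 0.357 to 1.51 in white fat, and its summed level was 383, 190 and 151 CPM in BAT 1, BAT 2 and BAT 3 and 81.6 to 188 CPM in white fat. By mean log2 level BAT 3 was above BAT 2, as for the interferon list, but by sum BAT 2 was above BAT 3, which lay within white fat. The highest white mean was in RWAT 1 for the interferon list, at 5.14, and in IWAT 1 for this list, at 1.51. Of 19 tested members, BAT 1 was above all white libraries for 17 (8.04% over all genes), BAT 3 for 11 (5.51%) and BAT 2 for 1 (7.33%), and BAT 2 was below all of them for 4 (6.79%). The cytotoxic granule protease Gzma stood at 29.5, 1.98 and 7.94 CPM in BAT 1, BAT 2 and BAT 3 and 0.706 to 3.32 CPM in white fat (2.99 ± 0.58, edgeR BH-adjusted p = 0.117). Il2rb, a chain of the interleukin-2 receptor, stood at 51.4, 2.18 and 15 CPM in BAT and 1.52 to 9.22 CPM in white fat (2.52 ± 0.58, edgeR BH-adjusted p = 0.168). The pore protein Prf1 stood at 9.59, 0.253 and 3.89 CPM in BAT and 0.343 to 1.18 CPM in white fat (2.70 ± 0.62, edgeR BH-adjusted p = 0.172). Of the 19, edgeR called 0, DESeq2 8 (0.95% over all genes) and limma-voom 0, and 17 were higher at an unadjusted p below 0.05 (3.87%). The median was 2.12, and 0.56 without BAT 1. The part of these cells in the interferon result was not tested. B cell genes had a median of -0.16, which was 0.033 without BAT 2, and 0 of 12 members at an unadjusted p below 0.05 (0 by edgeR, DESeq2 and limma-voom).

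Thermogenic effectors carry out heat production, and all 18 tested had positive log2 fold changes, yet edgeR called 0. DESeq2 called 2 (0.95% over all genes) and limma-voom 0, and 13 were higher at an unadjusted p below 0.05 (3.87%), with a median of 2.05. BAT 1 was above all 9 white libraries for 15 of the 18 (8.04%), and BAT 2 and BAT 3 for 0. The lipid droplet protein Cidea stood at 309, 0.558 and 2.30 CPM in BAT 1, BAT 2 and BAT 3, 0 to 0.488 CPM in EWAT, 2.29 to 22.2 CPM in IWAT and 0.136 to 1.84 CPM in RWAT (6.27 ± 1.28, edgeR BH-adjusted p = 0.13). Cox8b, a cytochrome oxidase subunit, stood at 229, 0.0507 and 2.74 CPM in BAT and reached 82.0 CPM in IWAT 1 (4.37 ± 1.37, edgeR BH-adjusted p = 0.466). IWAT 1 was thus above BAT 2 and BAT 3 for Ucp1, Cidea and Cox8b. Plin5, which ties lipid droplets to mitochondria, stood at 81.7, 10.9 and 11.1 CPM in BAT and 1.90 to 17.7 CPM in white fat (2.48 ± 0.52, edgeR BH-adjusted p = 0.133). Slc27a2 and Elovl3, which activate and lengthen fatty acids, did not pass the filter on low counts. They stood at 28.1 and 3.36 CPM in BAT 1 and at most 0.253 CPM in BAT 2 and BAT 3. White fat reached 1.56 and 0.782 CPM, both in EWAT 3.

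Without BAT 1 the thermogenic median was -0.094 over the same number of 18 genes, and Ucp1 had a log2 fold change of -0.59 in place of 8.41 ± 1.59. Without BAT 2 it was 3.16 over 20 genes and 6 passed, which were Ucp1, Cidea, Cpt1b, Plin5, Slc27a2 and Fabp3. Without BAT 3 it was 3.16 and 0 passed. In the fit without BAT 2, the remaining BAT 3 was above all white libraries for 0 of the 18 genes of the full set. Slc27a2 stood at 0.164 CPM in BAT 3, below EWAT 3 at 1.56 CPM. The mean log2 CPM of the list was 6.30, 1.63 and 2.31 in BAT 1, BAT 2 and BAT 3, and 0.77 to 3.74 in white fat. Fabp3, Cox7a1 and Cox8b are also made by muscle, of which BAT 1 held more transcripts than BAT 2 and BAT 3. RWAT 3 held the most of all, with 28.5 CPM of Myh2 against 17.4 CPM in BAT 1. The part of muscle in the thermogenic values was not tested.

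**Figure D4:**
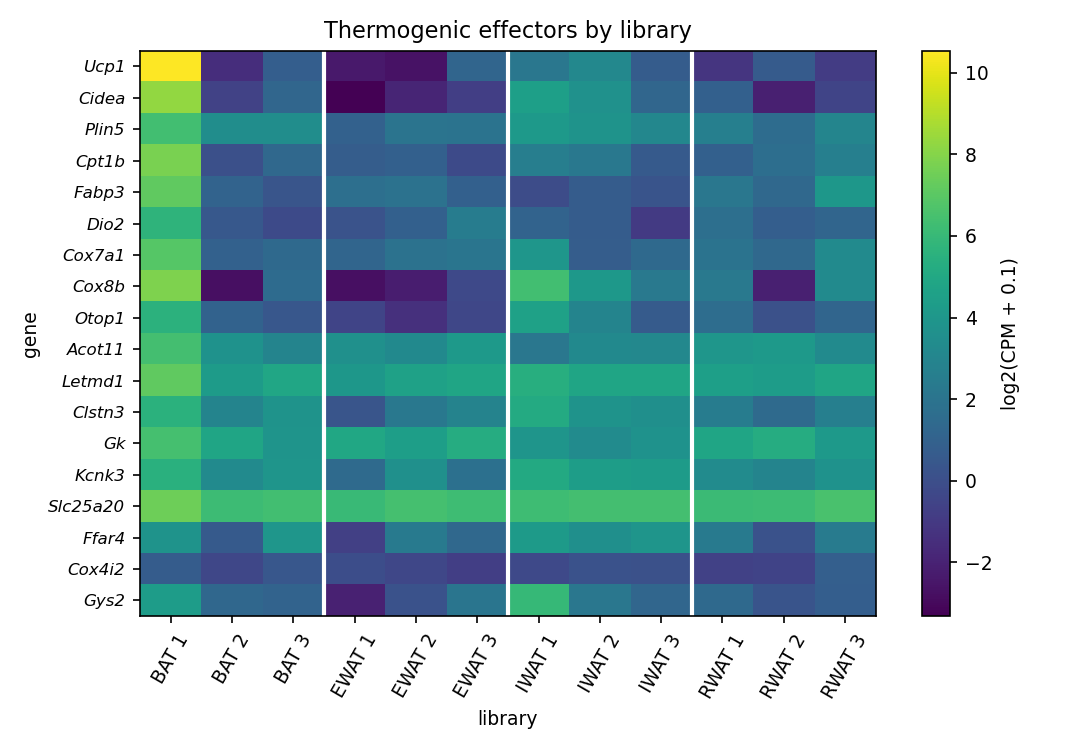
Level of the 18 tested thermogenic effectors on the log2(CPM + 0.1) scale (colour) in each library, BAT left of EWAT, IWAT and RWAT. BAT 1 is the brightest column, with Ucp1 at 1489 CPM, while BAT 2 and BAT 3 look like white fat and IWAT 1 is the next brightest for Cox8b and Cidea.

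Regulators and fuel pathways of brown fat were also counted by library. BAT 1 was above all white libraries for 6 of 19 regulators and 6 of 20 fatty acid oxidation genes (8.04% over all genes). For the tricarboxylic acid cycle it was above them for 10 of 19 genes. BAT 2 was above the white libraries for 2 regulators (7.33% over all genes) and below all of them for 2 (6.79%). Neither BAT 2 nor BAT 3 was above them for any gene of the other lists. The mean log2 CPM of the regulators was 3.95, 2.48 and 3.50 in BAT 1, BAT 2 and BAT 3 and up to 3.98 in white fat. The nuclear receptor Ppara stood at 48.2, 0.811 and 4.93 CPM in BAT 1, BAT 2 and BAT 3 and 0.143 to 7.99 CPM in white fat (2.93 ± 0.79, edgeR BH-adjusted p = 0.293). The coactivator Ppargc1a stood at 19.8, 0.456 and 3.94 CPM in BAT and 0 to 12.8 CPM in white fat (1.5 ± 0.84, edgeR BH-adjusted p = 0.999). Of 19 tested regulators edgeR called 0, DESeq2 1 (0.95% over all genes) and limma-voom 0. At an unadjusted p below 0.05, 3 were higher (3.87%), and the median was 0.30, or 0.027 without BAT 1. Fatty acid oxidation genes had a median of 0.59 and tricarboxylic acid cycle genes one of 0.55. Against IWAT these medians were -0.38 and -0.19, against EWAT 1.05 and 0.84, and against RWAT 0.91 and 0.84. At an unadjusted p below 0.05, 4 of 20 and 3 of 19 were higher (3.87% over all genes), with 0 calls by edgeR, DESeq2 or limma-voom in either list. Acadvl, which opens the oxidation of long-chain fatty acids, stood at 532, 75.9 and 138 CPM in BAT and 52.0 to 287 CPM in white fat (1.24 ± 0.44, edgeR BH-adjusted p = 0.651). Without BAT 1 the medians were -0.046 for fatty acid oxidation and -0.18 for the cycle. Alpl, a phosphatase of the creatine cycle of fat, stood at 7.78, 0.608 and 2.96 CPM in BAT and 0.952 to 3.24 CPM in white fat (1.2 ± 0.51, edgeR BH-adjusted p = 0.923), and the 10 tested genes of creatine and calcium cycling had a median of 0.28, which was -0.43 without BAT 1, with 0 called by the 3 tools.

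White fat genes overlapped throughout. Lep, the hormone leptin, stood at 141, 138 and 939 CPM in BAT 1, BAT 2 and BAT 3 and 13 to 1375 CPM in white fat (-0.51 ± 0.91, edgeR BH-adjusted p = 0.999). Adipoq, the hormone adiponectin, stood at 585, 173 and 2276 CPM in BAT and 34.8 to 2323 CPM in white fat (0.25 ± 0.82, edgeR BH-adjusted p = 0.999). BAT 3 was the highest BAT library for both. Mest, an imprinted gene of fat expansion, stood at 26.5, 33.3 and 35.5 CPM in BAT and 26.1 to 220 CPM in white fat (-1.13 ± 0.31, edgeR BH-adjusted p = 0.318). The 16 tested white-enriched genes had a median of -0.15, the 18 pan-adipocyte genes 0.22 and the 18 lipid synthesis genes 0.36. In this order they were -1.33, -0.94 and -0.85 against IWAT, 0.30, 1.05 and 1.05 against EWAT, and 0.27, 0.63 and 0.71 against RWAT. Single libraries decided these values: without BAT 3 the white-enriched median was -1.23 and the pan-adipocyte median -0.44, without BAT 1 they were 0.062 and 0.31 and the lipid synthesis median -0.014, and without BAT 2 the 3 medians were 0.17, 0.66 and 0.70. In these 3 lists edgeR and limma-voom called 0 and DESeq2 called 1 (0.95% over all genes), a white-enriched gene, lower in BAT. At an unadjusted p below 0.05 there was 1 white-enriched gene lower (1.05%), 0 pan-adipocyte genes, and 1 lipid synthesis gene higher (3.87%). That last one, the acetyl-CoA carboxylase Acacb, stood at 184, 20.9 and 87.1 CPM in BAT and 4.14 to 137 CPM in white fat (1.41 ± 0.50, edgeR BH-adjusted p = 0.647).

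Depot patterning factors of white fat split in both directions. Irx1 and Irx2, Iroquois factors, stood at 1.26 to 6.44 and 1.07 to 4.36 CPM in BAT, 0 to 0.286 and 0.0488 to 0.238 CPM in EWAT, 1.47 to 1.90 and 1.57 to 3.35 CPM in IWAT and 0 to 1.11 and 0.182 to 0.773 CPM in RWAT (log2 fold change 2.92 ± 0.67 and 2.40 ± 0.49, edgeR BH-adjusted p = 0.15 and 0.124). BAT overlapped IWAT and lay above EWAT and RWAT for both. Emx2 stood at 0.329 to 0.760 CPM in BAT and 0.531 to 6.96 CPM in white fat (-1.88 ± 0.56, edgeR BH-adjusted p = 0.409). Wt1, a factor of visceral fat and mesothelium, stood at 0.0507 to 0.493 CPM in BAT and 16.4 to 19.8 CPM in EWAT, 0 to 0.118 CPM in IWAT, and 0, 8.05 and 7.2 CPM in RWAT 1, RWAT 2 and RWAT 3. Of the 19 tested factors edgeR called 0, DESeq2 2 higher (0.95% over all genes in either direction) and limma-voom 0. At an unadjusted p below 0.05, 3 were higher (3.87%) and 5 lower (1.05%). Their median was -0.047, and 0.16 without BAT 1, -0.18 without BAT 2 and 0.25 without BAT 3.

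Mesothelial genes, which mark the lining of the body cavities, had a mean log2 CPM of -0.0513, -1.28 and -0.18 in BAT 1, BAT 2 and BAT 3, against 2.32 to 3.45 in EWAT, -0.68 to 0.154 in IWAT and -0.508 to 2.69 in RWAT. BAT overlapped IWAT and RWAT 1 and lay below EWAT, RWAT 2 and RWAT 3. Mesothelin, Msln, stood at 0.107, 0.0507 and 0.219 CPM in BAT and 0.235 to 12 CPM in white fat, with no overlap (-4.43 ± 1.22, edgeR BH-adjusted p = 0.298). The keratin Krt18 summed to 3 counts in BAT and 517 in white fat. The pooled ratio was 57.7, with a 95% exact counting interval of 19.6 to 281. In the edgeR test against the equally weighted depots, its BH-adjusted p was 0.183. EWAT held 453 of the white counts, against 9 in IWAT and 55 in RWAT, and IWAT 3 had 0. The retinaldehyde dehydrogenase Aldh1a2 stood at 3.30, 1.42 and 5.04 CPM in BAT and 4.93 to 27.1 CPM in white fat (-1.69 ± 0.41, edgeR BH-adjusted p = 0.193). Of 17 tested members edgeR called 0, DESeq2 5 lower (0.95% of all genes in either direction) and limma-voom 0. At an unadjusted p below 0.05, 10 were lower (1.05% of all genes), with a median of -2.20. The median was -3.64 against EWAT, -0.75 against IWAT and -3.02 against RWAT. IWAT, which like BAT lies outside the body cavity, had Msln at 0.235 to 1.63 CPM.

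The basement membrane collagens Col4a5 and Col4a6, a pair on chromosome X whose start sites lie 1309 bases apart on opposite strands, were both below white fat in all 3 BAT libraries. Col4a6 stood at 0.586, 0.253 and 0.383 CPM in BAT 1, BAT 2 and BAT 3 and 0.588 to 6.25 CPM in white fat, where IWAT 3 was the lowest (-2.47 ± 0.41, edgeR BH-adjusted p = 0.0965). Col4a5, named after its values were seen, stood at 12.4, 12.6 and 7.12 CPM in BAT and 15.6 to 33.4 CPM in white fat (-1.18 ± 0.22, edgeR BH-adjusted p = 0.112). Without BAT 2 it passed, at -1.31 ± 0.27 (edgeR BH-adjusted p = 0.0436).

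Among connective tissue genes, Ly6a, the stem cell antigen Sca-1 of adipose progenitors, stood at 449, 203 and 360 CPM in BAT 1, BAT 2 and BAT 3, 42.9 to 55.2 CPM in EWAT, 134 to 265 CPM in IWAT and 87.2 to 167 CPM in RWAT (1.66 ± 0.26, edgeR BH-adjusted p = 0.0773). BAT 2 lay within the IWAT range. Ly6a is also induced by interferon. Its order over the BAT libraries was that of Ifi44 and also of Ucp1, and the cause was not tested. Pi16, a marker of interstitial progenitors, stood at 55.9 to 291 CPM in BAT, 3.47 to 8.91 CPM in EWAT and 135 to 567 CPM in IWAT (1.42 ± 0.58, edgeR BH-adjusted p = 0.866). The 16 tested preadipocyte and fibroblast genes were all positive against the white mean, with a median of 0.59. The median was 1.09 against EWAT, 0.040 against IWAT and 0.37 against RWAT. At an unadjusted p below 0.05, 4 were higher (3.87% over all genes), and edgeR called 0, DESeq2 2 (0.95%) and limma-voom 0. The pentraxin Ptx3, named after its values were seen, stood at 18.9, 27.3 and 36.9 CPM in BAT and 2.09 to 17.9 CPM in white fat (1.90 ± 0.35, edgeR BH-adjusted p = 0.101).

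Among the other cell types, macrophage genes had a median of 0.074 and lipid-associated macrophage genes one of -0.42. All 13 of the second list were negative against the white mean. By depot, macrophage medians were -0.30 against EWAT, 0.58 against IWAT and -0.075 against RWAT. Those of lipid-associated macrophage genes were -1.14, 0.21 and -0.83. Fcgr1, an antibody receptor that interferon also induces, stood at 207, 83.6 and 92.1 CPM in BAT and 13.1 to 168 CPM in white fat (1.31 ± 0.40, edgeR BH-adjusted p = 0.424). The tetraspanin Cd9 stood at 40.1 to 79.7 CPM in BAT and 24.7 to 172 CPM in white fat (-0.66 ± 0.28, edgeR BH-adjusted p = 0.928). Blood endothelial genes had a median of 0.56, and the coreceptor Eng stood at 85.4, 110 and 110 CPM in BAT and 35.3 to 102 CPM in white fat (0.72 ± 0.26, edgeR BH-adjusted p = 0.66). The medians were 0.052 for mural, 0.58 for mast cell and 0.26 for cell cycle genes. Against EWAT, IWAT and RWAT the mast cell median was 1.91, -1.12 and 1.04, and the cell cycle median -0.33, 1.365 and -0.13. Without BAT 2 the mural median was -0.17 and the cell cycle median -0.27, and without BAT 3 the mast cell median was -0.30 and the macrophage median -0.071. In these 6 lists edgeR, DESeq2 and limma-voom called 0. At an unadjusted p below 0.05, 1 macrophage, 2 endothelial and 1 mural gene were higher (3.87% over all genes). There was 1 lipid-associated macrophage gene lower (1.05%), and 0 mast cell or cell cycle genes in either direction.

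Genes of the sympathetic neuron were sparse. The noradrenaline enzyme Th had 1 count in all 12 libraries together, and Dbh had 0. Schwann cell genes had a median of 0.036, which was -0.33 without BAT 1, and sympathetic neuron genes one of -0.18. At an unadjusted p below 0.05, 1 of 12 and 1 of 10 were higher (3.87% over all genes). edgeR and limma-voom called 0 in both lists, and DESeq2 called 1 Schwann cell gene (0.95%). S100b, a calcium-binding protein that Schwann cells and also brown adipocytes make, stood at 41.2, 0.507 and 1.81 CPM in BAT 1, BAT 2 and BAT 3 and 0.428 to 5.69 CPM in white fat (3.20 ± 0.83, edgeR BH-adjusted p = 0.259). Its order over the BAT libraries was that of Ucp1 and also of Sox10, given next, and which cells made it was not tested. Sox10, the defining factor of Schwann cells, stood at 0.799, 0.101 and 0.383 CPM in BAT and 0 to 2.32 CPM in white fat. Muscle genes had a median of 1.05, and -1.66 without BAT 1. Against EWAT, IWAT and RWAT it was 3.78, 3.05 and -4.41. At an unadjusted p below 0.05, 2 of 16 were higher (3.87% over all genes), and 0 were called by the 3 tools. The oxygen carrier Mb stood at 14.1, 0.963 and 0.219 CPM in BAT and reached 30.2 CPM in RWAT 3.

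Leaving out a BAT library changed the number of calls. Without BAT 1, 1 of 19490 genes passed (0.00513%), which was Zic1 at 6.11 ± 0.42 (edgeR BH-adjusted p = 6.8e-05). Without BAT 2, 251 of 19577 passed (1.28%), 246 higher and 5 lower, and all 10 calls of the full set were among them. These 251 held 23 of 25 tested interferon genes, 10 of 20 T and natural killer cell genes, 6 of 20 thermogenic effectors, and 4 of 16 lineage factors, Lhx8 the fourth at 5.25 (edgeR BH-adjusted p = 0.0271). The 5 lower genes were Hoxa9, Hoxa10, Hoxc9, Hoxc10 and Col4a5. Without BAT 3, 8 of 19528 passed (0.041%), among them the muscle myosin Myh7, which was named after its values were seen and stood at 3.94, 1.57 and 0.0548 CPM in BAT 1, BAT 2 and BAT 3. The calls of Zic4, Tbx15, Hoxa9, Hoxa10 and Hoxc10 ended both without BAT 1 and without BAT 3.

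**Figure D5:**
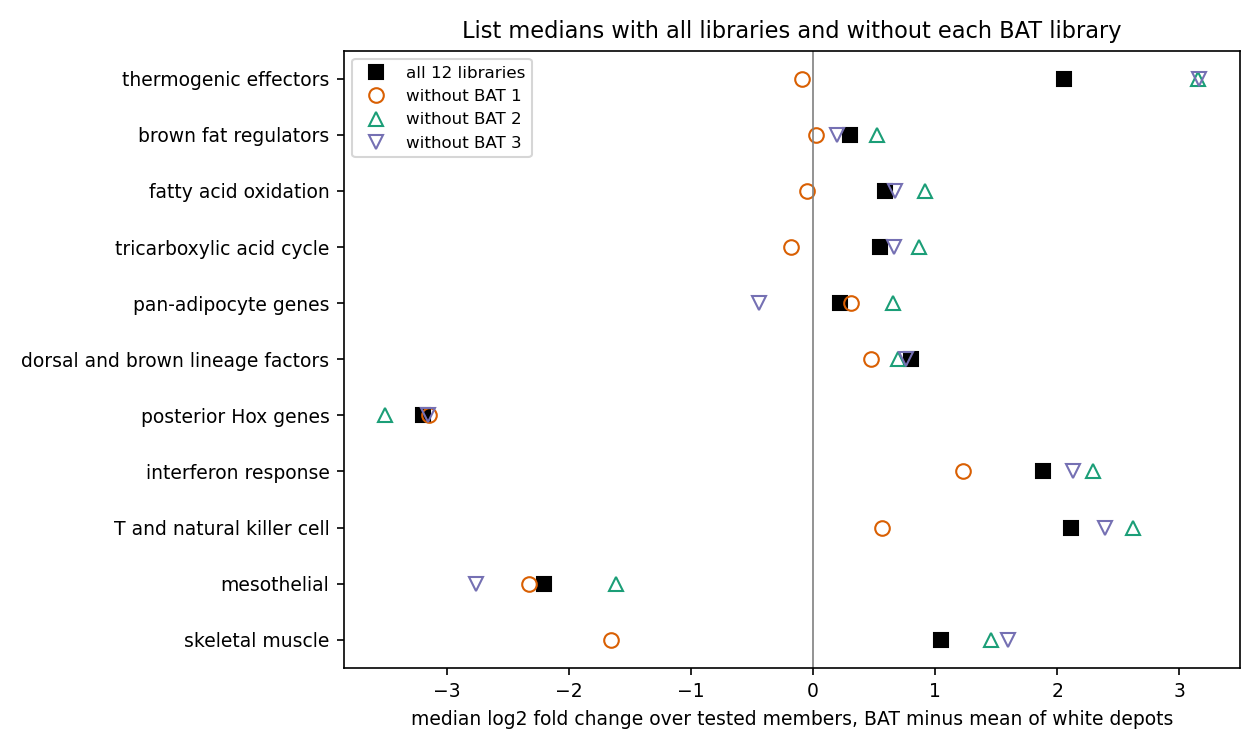
Median log2 fold change of the tested members of 11 gene lists, BAT minus the white mean, with all 12 libraries (black squares) and without BAT 1, BAT 2 or BAT 3 (open symbols). The thermogenic median is 2.05 with all libraries and -0.094 without BAT 1, whereas posterior Hox genes stay between -3.51 and -3.14 and the interferon median is 1.23 without BAT 1.

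White libraries mattered too. Of the 10 calls, the number that ended was 8 without EWAT 1, EWAT 2 or EWAT 3, 9 without RWAT 3, 3 without RWAT 1 or RWAT 2 (Ifi44, Zic4 and Apol9a), 1 without IWAT 2 (Hoxc10), and 0 without IWAT 1 or IWAT 3. It was 5 without BAT 3. Zic1 was past the threshold each time. Each of the 10 genes kept its direction in all 22 alternatives. Of the other settings, limma-voom ended 7 of the 10 calls, all but Zic1, Zic4 and Syndig1. White libraries as 1 group ended 6, all but Zic1, Zic4, Syndig1 and Ifi44, and DESeq2 ended 0.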

How the data were processed

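RNA depleted of ribosomal RNA was sequenced as single-end 75 bp reads on a NextSeq500, per the labels' protocols. The submitters' processing notes name Trimmomatic 0.36, RSEM 1.3.0, DESeq2 1.10.1 and GRCm38.p4. No aligner, annotation release or strand setting is given in the sources used here. The tables as deposited hold RSEM expected counts, TPM and effective lengths per gene, per the file headers. Expected counts were rounded. Genes passing filterByExpr with a minimum count of 10 were kept (18942 of 47729), and edgeR 4.0.16 quasi-likelihood tests (legacy = FALSE) were run in R 4.3.3 with TMM scaling, 1 coefficient per depot over 12 libraries and the contrast BAT minus the equally weighted mean of EWAT, IWAT and RWAT. The threshold was a Benjamini-Hochberg adjusted p of 0.05, over all genes tested. SE is the log2 fold change divided by the square root of F. CPM uses TMM-scaled library sizes. Library totals were 12933516 to 21106554 expected counts, and intervals and floors take in counting error alone. Scripts were tested on simulated counts.

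Groups came from the sample titles. Genes were named by these rules: every gene past the threshold, up to 15 a direction; up to 3 members of each described list with the smallest unadjusted p below 0.05; always Ucp1, Cidea, Ppargc1a, Lep and Adipoq; and up to 5 genes a direction with the largest fold change among those whose BAT libraries all lie outside the 9 white libraries, with a mean of at least 5 CPM in BAT or in the highest white depot. Further members, named to show the range of a list, were chosen after their values were seen. Members, lists and tests were chosen with earlier results of these data known. Alternatives were DESeq2 1.42.0, limma-voom and limma quality weights (limma 3.58.1), other scaling, no filter, white libraries as 1 group, a replicate block, and leaving out each library. The legacy edgeR setting was added after seeing the data. Promoter sequences are from RefSeq (GRCm38.p6). A few list members enter the list counts but are not reported here by name.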

Additional observations from a re-analysis of the deposited data

How the results depend on the processing

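Against the white mean, 10 genes passed; 21 did with no filter on low counts, 180 with DESeq2, and 4 each with limma-voom, with limma quality weights and with white libraries as 1 group. Against EWAT the count was 27, and 63 with no filter, 477 with DESeq2, 16 with limma-voom, 8 with quality weights and 16 with the legacy edgeR setting. Against IWAT it was 5, and 321 with DESeq2, 0 with limma-voom and 1 with quality weights. Against RWAT it was 4, and 45 with DESeq2 and 0 with limma-voom and with quality weights. At an unadjusted p below 0.05, edgeR had 2501 genes against IWAT and 894 against RWAT. Leaving out 1 library gave 1 to 251 genes against the white mean, 3 to 247 against EWAT, 3 to 82 against IWAT and 0 to 28 against RWAT. Against the white mean 1 gene passed when BAT 1 was left out, 251 when BAT 2 was, 4 for EWAT 1, 3 for EWAT 2 and for EWAT 3, and 2 for RWAT 3. The cause was not tested.

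Replicate numbers are not said to pair libraries, and only BAT and RWAT correlated above 0.1 in all 3 same-numbered pairs. With a replicate block, 7 genes passed against the white mean, 13 against EWAT, 4 against IWAT and 3 against RWAT; Tbx15, Ifi44 and Wnt16 were no longer called.

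Without BAT 1 the log2 fold change turned negative in these genes, whose highest value without any 1 library follows each: Ucp1 -0.59 and 9.49, Esrrg -0.59 and 2.60, Ppargc1b -0.0086 and 1.36, Acaa2 -0.14 and 1.54, Etfdh -0.023 and 1.2, Sucla2 -0.22 and 1.63, Suclg1 -0.24 and 1.3, Mb -0.040 and 4.44, S100b -0.45 and 3.77, and Ppargc1a -0.38 and 2.06. For Adipoq it was -0.060 with limma-voom, -0.068 with white libraries as 1 group, -0.047 with the replicate block and -1.17 without BAT 3, with a highest value of 0.75. None of these genes had passed the threshold. Depth limits genes under 0.134 to 0.227 CPM, where 3 counts lie.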
